A study of Rattus norvegicus with 6 samples.

Results

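The contractile genes of arteriolar smooth muscle were examined in sieved rat glomeruli. The members were 10 named genes, Acta2, Tagln, Myh11, Cnn1, Smtn, Myl9, Actg2, Lmod1, Mylk and Synpo2, and a gene was taken as its brightest probeset among those annotated with exactly 1 gene symbol. Of the 10 genes, 9 were matched, each by 1 probeset, among 14506 genes on the array, and Synpo2 was not analysed here. RNA came from the renal cortex of adult male Sprague-Dawley rats, for which the labels give no drug treatment and no engineered allele. There were 3 PEC-enriched isolates, which are capsulated glomeruli trapped on a 90 µm sieve and hold parietal epithelial cells (PECs, the lining of Bowman's capsule), and 3 PEC-deprived isolates, which are decapsulated glomeruli collected on a 75 µm sieve. Each of the 6 isolates was hybridized to 1 Affymetrix whole-transcript array. Neither isolate is a pure cell population, and most of the preparations held some capsulated and some decapsulated glomeruli together with tubular fragments. The methods name individual rats, 3 animals, without saying whether both fractions came from the same rats. The p-values therefore measure the spread between these isolates.

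Smooth muscle cells surround the afferent and efferent arterioles that enter and leave the glomerulus at its vascular pole. Force is made when myosin light chain kinase phosphorylates the regulatory light chain of smooth muscle myosin, which then pulls on filaments of smooth muscle actin. Actin-binding proteins such as transgelin, calponin, smoothelin and leiomodin load, cap or stabilise these filaments. Mesangial cells and pericytes are also contractile and can express some of the same genes. Transcription of many of these genes depends on serum response factor and its partner myocardin, which act on a DNA element called the CArG box.

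The 6 arrays were comparable in scale, with medians between 6.69 and 6.75 and correlations between arrays from 0.9816 to 0.9937. Values are RMA expression values on the log2 scale, where a difference of 1 is a doubling, and each log2 fold change is the PEC-enriched mean less the PEC-deprived mean. Podocyte markers were well represented in both isolates. Nephrin (Nphs1) lay between 11.83 and 12.22 over the 6 arrays and podocalyxin (Podxl) between 13.00 and 13.24. No signal-over-background call was used here. Values near or below the array medians therefore cannot be told from background. Among these were Cnn1, Lmod1, Actg2, myocardin (Myocd) and, in PEC-deprived isolates, Myh11. Over all 29215 probesets limma called 0 at the adjusted threshold of 0.01. The smallest adjusted p in limma was 0.152, while 3048 probesets (10.4%) had an unadjusted p under 0.05.

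The contractile genes did not move as a block. Smooth muscle myosin heavy chain and transgelin had higher means in PEC-enriched isolates, by 1.77-fold and 1.65-fold, and Acta2 had a mean 1.16-fold higher. Cnn1, Lmod1, Myl9 and Mylk had nearly the same means in both isolates, and Actg2 and Smtn had lower means in PEC-enriched isolates. In all, 5 of the 9 genes lay higher on average and 4 lower, against 44.8% of all genes with a higher mean. In this count the signs of Myl9, Cnn1 and Lmod1 are not firm, as they turned when single arrays were left out. The median log2 fold change of the 9 genes was 0.02, against -0.02 over all genes, while the median size of the change without its sign was 0.20, against 0.10. At the adjusted threshold of 0.01 limma called 0 of the 9 genes and 0.0% of all genes. Of the 9, 3 were higher at an unadjusted p under 0.05, where 7.96% of all genes were, and 0 were lower, where 5.65% were. Those 3 were Myh11, Tagln and Acta2. Acta2 lost this call with the replicate block, with median centring, in a regularised Bayesian test and when any 1 array but PEC-enriched replicate 3 was left out. Smtn was lower at this level without PEC-enriched replicate 1, and in that Bayesian test at prior weights of 10 and 6. A log2 fold change of 0.5 or more in size was seen in 2 of the 9 and in 4.94% of all genes. Every PEC-enriched array exceeded every PEC-deprived one in 3 genes (9.68% of all genes), and the reverse held in 1 gene (9.0%). In the other 5 the isolates overlapped.

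**Figure D1:**
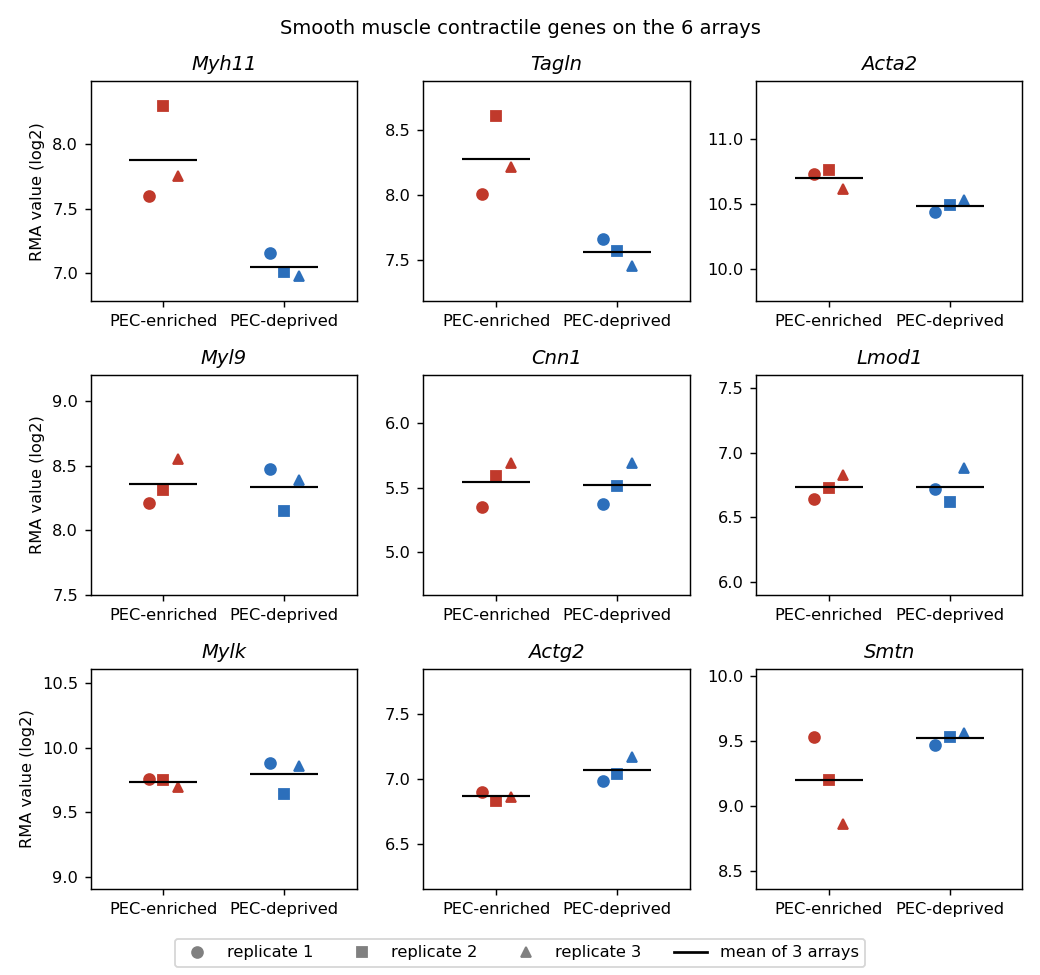
RMA values (y axis, log2) of the 9 measured contractile genes in PEC-enriched and PEC-deprived isolates (x axis), 1 panel per gene with the same height in log2 units. Each point is 1 array, its shape gives the replicate and the line is the mean of 3 arrays. The PEC-enriched arrays of Myh11, Tagln and Acta2 lie above the PEC-deprived arrays, and those of Actg2 lie below.

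Myh11 encodes the heavy chain of smooth muscle myosin, the motor of the thick filament and the gene among the 9 most closely tied to smooth muscle. Its values were 7.60, 8.29 and 7.75 in PEC-enriched replicates 1, 2 and 3, against 7.16, 7.01 and 6.98 in PEC-deprived replicates 1, 2 and 3. The groups were separated by a gap of 0.434, with PEC-enriched replicate 2 well above the other two. The mean was 7.88 ± 0.363 in PEC-enriched and 7.05 ± 0.0990 in PEC-deprived glomeruli (SD, n = 3 arrays each), a difference of 0.83 (limma SE 0.173, adjusted p = 0.182). The 95% interval ran from 1.35-fold to 2.34-fold. The PEC-deprived values lay near the array medians and were not shown to be above background. The fold and its interval therefore describe the signal and do not bound the ratio of expression. Of all genes, 1.56% had a higher log2 fold change. Without PEC-enriched replicate 2 the log2 fold change was 0.62, and over the other arrays left out in turn it reached 0.97. Myh11 and Tagln both stand on a list of genes that the study drew from these same arrays, so their direction is not independent evidence. A regularised Bayesian test of the kind the methods name, with a prior weight of 10, called both at the threshold of 0.01 (adjusted p = 0.00393 for Myh11 and 0.00608 for Tagln). With a prior weight of 6 or 3 it called neither.

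Tagln, which encodes transgelin, an actin cross-linking protein known as an early marker of smooth muscle, had almost the same pattern. It stood at 8.01, 8.61 and 8.22 in PEC-enriched replicates 1, 2 and 3, against 7.66, 7.57 and 7.45 in PEC-deprived replicates 1, 2 and 3. The arrays ranked as in Myh11, with PEC-enriched replicate 2 highest and PEC-deprived replicate 3 lowest. The mean was 8.28 ± 0.305 in PEC-enriched and 7.56 ± 0.105 in PEC-deprived glomeruli (SD, n = 3 arrays each), a difference of 0.72 (limma SE 0.154, adjusted p = 0.183). The interval of the fold was 1.29 to 2.10. Without PEC-enriched replicate 2 the log2 fold change was 0.55.

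The likeness of these profiles was measured as the root mean square difference between log2 values after each gene was centred on its mean over the 6 arrays. Between Myh11 and Tagln it was 0.0735. Of 14505 other genes Myh11 was the second closest to Tagln, and Tagln was the fifth closest to Myh11. This likeness was looked for after the values were seen. The genes nearest to the mean of the pair were Ggct, B3galt5, Acss3, F2rl1, Hook1, Gpr39, Ccl2 and Col11a1, with differences between 0.0523 and 0.0913, against a median of 0.459 over all other genes. None of these 8 is another contractile gene. Their log2 fold changes, between 0.67 and 0.93, follow from this choice. Of them, Ggct, B3galt5, Acss3, F2rl1, Gpr39 and Ccl2 also stand on the list drawn from these arrays. When the mean of all 9 contractile genes was used instead, the nearest were Prkcsh, Arl1, Tmem30a, Ppp2cb, Calhm5, Yipf6, Vim and Eprs1, with differences between 0.0118 and 0.0274 against a median of 0.156. That mean profile spans little, from -0.124 to 0.155, and members with opposite directions offset each other in it.

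Acta2 encodes vascular smooth muscle alpha-actin, the main actin of arteriolar thin filaments, which mesangial cells can also express. Its values were 10.73, 10.76 and 10.62 in PEC-enriched replicates 1, 2 and 3, against 10.44, 10.49 and 10.53 in PEC-deprived replicates 1, 2 and 3. The groups did not overlap, but the gap between them was only 0.098. The mean was 10.71 ± 0.0717 in PEC-enriched and 10.49 ± 0.0419 in PEC-deprived glomeruli (SD, n = 3 arrays each), a difference of 0.22 (limma SE 0.0878, adjusted p = 0.439). The interval of the fold was 1.01 to 1.34.

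Actg2 encodes the gamma actin of enteric smooth muscle, a near-identical protein whose usual place is the gut and bladder wall. It had 6.90, 6.83 and 6.86 in PEC-enriched replicates 1, 2 and 3, against 6.98, 7.04 and 7.17 in PEC-deprived replicates 1, 2 and 3. All PEC-enriched arrays lay below all PEC-deprived arrays, with a gap of 0.078. The log2 fold change was -0.20 (limma SE 0.0917, adjusted p = 0.513), with a 95% interval of the fold from 0.752 to 1.01. These values lay near the array medians, and the signal was not shown to be above background. The difference between both actins on the same array, each centred on its own mean, was 0.208 ± 0.0821 on PEC-enriched arrays and -0.208 ± 0.0618 on PEC-deprived arrays (SD, n = 3 each). Actins share long stretches of coding sequence. The probe sequences were not used here, so a part of one actin's signal in the probeset of another was not tested. The skeletal actin Acta1 had a log2 fold change of -0.07 and the cardiac actin Actc1 one of 0.11, and the isolates overlapped in both.

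The promoters of Acta2, Actg2 and Smtn are shown because these genes are named together as targets of serum response factor and had different directions here. Each stretch is the 150 bases before the annotated start in RefSeq on the rat build GRCr8, written 5′ to 3′ on the strand of the gene, which is the minus strand in all of them. Capitals mark a CArG box, here a run of A and T between CC and GG, with 1 G or C allowed in the run.
Acta2 (chr1:241172504-241172653): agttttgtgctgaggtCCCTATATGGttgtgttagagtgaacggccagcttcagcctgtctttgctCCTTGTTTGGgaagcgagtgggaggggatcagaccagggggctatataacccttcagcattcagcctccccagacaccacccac
Actg2 (chr4:117594040-117594189): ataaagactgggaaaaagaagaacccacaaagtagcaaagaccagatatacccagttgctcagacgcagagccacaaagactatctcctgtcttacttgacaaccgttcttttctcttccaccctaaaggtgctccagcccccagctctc
Smtn (chr14:82644515-82644664): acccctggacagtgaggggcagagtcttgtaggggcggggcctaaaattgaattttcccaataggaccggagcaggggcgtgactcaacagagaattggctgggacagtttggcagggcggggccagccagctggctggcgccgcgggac
Promoters were found for 6 of the 10 named genes, Acta2, Actg2, Cnn1, Mylk, Smtn and Synpo2. The 250 bases before the start were searched, and the pattern reads the same on both strands. Acta2 held 2 boxes of the relaxed form, CCCTATATGG starting 134 bases and CCTTGTTTGG starting 84 bases before the start. The other 5 promoters held none. A full box, with only A and T in the run, was in 0 of the 6 promoters and in 1.5% of 33469 rat promoters, and either form was in 1 of the 6 and in 8.08% of all. A match is a description of the sequence and not a measured site, and no match says only that these letters are not in this window.

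Smtn encodes smoothelin, an actin-binding protein of contractile smooth muscle, and it had the lowest log2 fold change of the 9 genes. It stood at 9.53, 9.20 and 8.86 in PEC-enriched replicates 1, 2 and 3, against 9.47, 9.53 and 9.56 in PEC-deprived replicates 1, 2 and 3. PEC-enriched replicate 1 lay among the PEC-deprived arrays, while PEC-enriched replicates 2 and 3 lay below all of them. The mean was 9.20 ± 0.339 in PEC-enriched and 9.52 ± 0.0474 in PEC-deprived glomeruli (SD, n = 3 arrays each), a difference of -0.32 (limma SE 0.161, adjusted p = 0.560), with a 95% interval of the fold from 0.618 to 1.03. The value varied with single arrays and was -0.15 without PEC-enriched replicate 3 and -0.49 without PEC-enriched replicate 1.

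Smtn had a lower mean in PEC-enriched isolates, where Myh11 and Tagln had a higher one. The difference between Myh11 and Smtn, each centred on its own mean, was 0.575 ± 0.543 on PEC-enriched arrays and -0.575 ± 0.146 on PEC-deprived arrays (SD, n = 3 each). The groups did not overlap in this difference, with -0.042 the lowest of the PEC-enriched and -0.410 the highest of the PEC-deprived values. The difference between Tagln and Smtn behaved alike, from -0.085 to 0.848 in PEC-enriched and from -0.671 to -0.371 in PEC-deprived isolates. Between Myh11 and Acta2 it was 0.305 ± 0.330 on PEC-enriched arrays and -0.305 ± 0.140 on PEC-deprived arrays (SD, n = 3 each). These pairs were chosen after the values were seen. The exact two-sided permutation test gave p = 0.1 for each, the smallest p that 3 arrays against 3 allow, and nothing is drawn from it. Between Myh11 and Tagln the difference was only 0.054 ± 0.0748 on PEC-enriched arrays and -0.054 ± 0.0441 on PEC-deprived arrays.

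**Figure D2:**
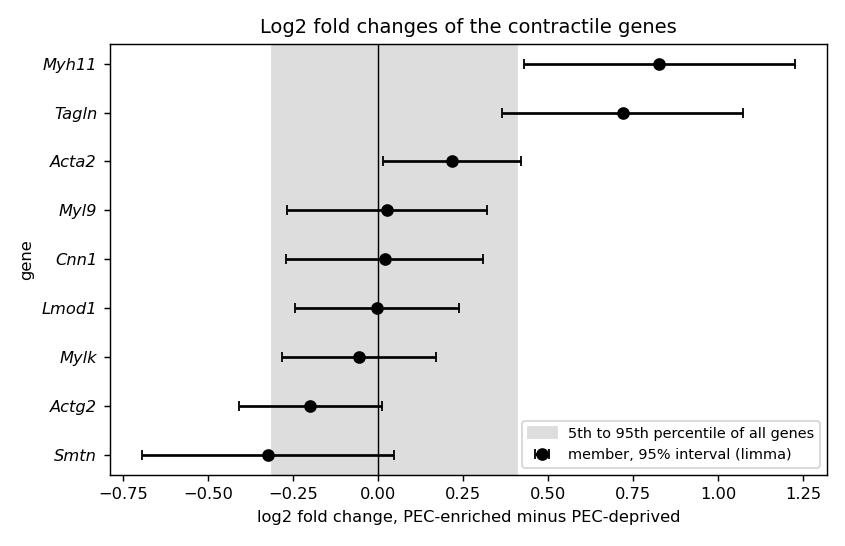
Log2 fold change (x axis, PEC-enriched minus PEC-deprived) of the 9 measured contractile genes (y axis), with points for the limma estimate and bars for its 95% interval. The grey band spans the 5th to the 95th percentile of all genes, from -0.31 to 0.41, and Myh11, Tagln and Smtn have estimates outside it.

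The remaining 4 genes had means that differed little between the isolates, and the intervals of Myl9 and Mylk bound the difference in signal. Myl9, the regulatory light chain that is phosphorylated for contraction, had 8.21, 8.31 and 8.55 in PEC-enriched replicates 1, 2 and 3, against 8.47, 8.15 and 8.39 in PEC-deprived replicates 1, 2 and 3. Its log2 fold change was 0.03, and the 95% interval of its fold ran from 0.830 to 1.25. Mylk, the kinase that phosphorylates this chain, had 9.76, 9.75 and 9.70 in PEC-enriched and 9.88, 9.64 and 9.86 in PEC-deprived replicates 1, 2 and 3. Its log2 fold change was -0.06, with a 95% interval of the fold from 0.822 to 1.12, and its spread was smaller in PEC-enriched isolates (SD 0.0307) than in PEC-deprived isolates (SD 0.133). Cnn1, the calponin that binds actin and restrains myosin, had 5.35, 5.59 and 5.69 in PEC-enriched and 5.37, 5.51 and 5.69 in PEC-deprived replicates 1, 2 and 3. Its log2 fold change was 0.02. Since its signal was not shown to be above background, this sets no bound on a difference in expression. Lmod1, the leiomodin that starts new actin filaments in smooth muscle, had 6.64, 6.73 and 6.83 in PEC-enriched and 6.72, 6.62 and 6.88 in PEC-deprived replicates 1, 2 and 3. Its log2 fold change was -0.0039, with a 95% interval of the fold from 0.844 to 1.18. Lmod1 lay near the array medians and was also not shown to be above background, so this interval bounds no difference in expression. The isolates overlapped in all 4 genes. The sign of Myl9, Cnn1 and Lmod1 turned when single arrays were left out, so no direction is given for them.

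The nonmuscle counterparts of the members, a list that also holds the striated muscle leiomodin Lmod2, had similar means in both isolates. Of 15 measured, 6 lay higher on average in PEC-enriched isolates and 9 lower. Their median log2 fold change was -0.05, with 0 called (0.0% of all genes). At an unadjusted p under 0.05, 1 of the 15 was lower, near the 5.65% of all genes. Myh10, a nonmuscle myosin heavy chain, had a log2 fold change of -0.05 where Myh11 had 0.83. The difference between Myh11 and Myh10, centred, was 0.436 ± 0.336 on PEC-enriched arrays and -0.436 ± 0.240 on PEC-deprived arrays (SD, n = 3 each). Tagln2, the widely expressed transgelin, had a log2 fold change of -0.08 where Tagln had 0.72, and the difference between them was 0.401 ± 0.404 on PEC-enriched arrays and -0.401 ± 0.103 on PEC-deprived arrays. Cnn3, a nonmuscle calponin, had the lowest log2 fold change of this list, at -0.21 (limma adjusted p = 0.429), with all PEC-enriched arrays below all PEC-deprived arrays. The cytoplasmic actins Actb and Actg1 had log2 fold changes of 0.01 and 0.12, and the 6 probesets annotated to Actg1 lay between 0.07 and 0.14. Of 25 measured striated muscle genes, 10 lay higher on average and 15 lower, with values from -0.20 to 0.18. At an unadjusted p under 0.05, 0 were higher and 0 lower, where 7.96% and 5.65% of all genes were.

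**Figure D3:**
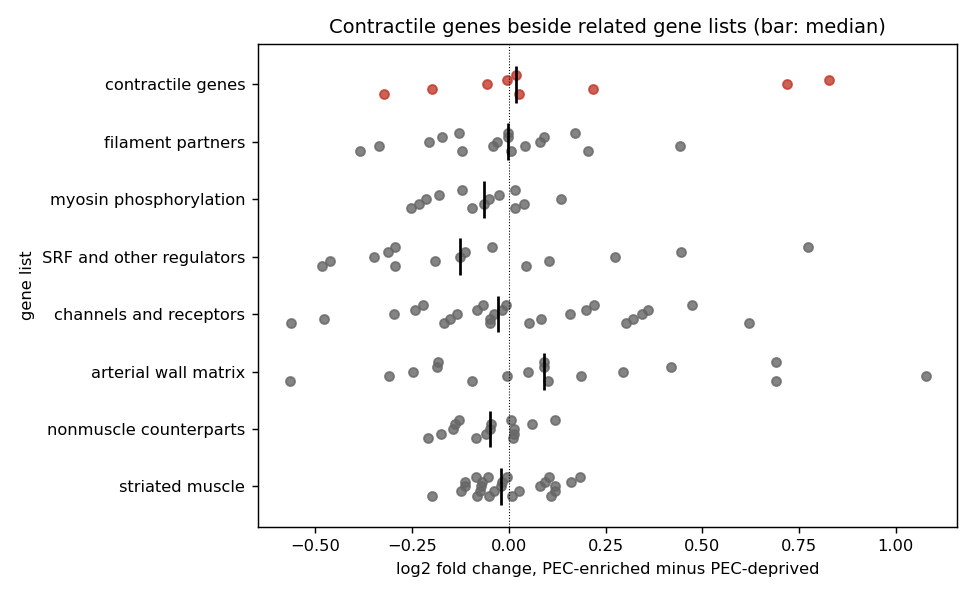
Log2 fold changes (x axis, PEC-enriched minus PEC-deprived) of the 9 contractile genes and of 7 related gene lists (y axis), each point 1 gene and each bar the median of a list. Myh11 and Tagln lie apart from the other contractile genes, the median of all 9 is 0.02, and the nonmuscle and striated muscle genes lie between -0.21 and 0.18.

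Genes that work with the members were taken from lists of filament partners, of the control of myosin phosphorylation and of transcription. Of 17 measured filament partners, 7 lay higher on average and 10 lower. Their median log2 fold change was -0.003, and 0 were called. The limma fit put 1 higher and 3 lower at an unadjusted p under 0.05, against 7.96% and 5.65% of all genes. Actn1, the alpha-actinin of dense bodies and stress fibres, had a log2 fold change of 0.44 (limma adjusted p = 0.367). The muscle intermediate filament genes Des and Synm had -0.34 and -0.38 (limma adjusted p = 0.335 and 0.301), with all PEC-enriched arrays below all PEC-deprived arrays in both. Desmin is also a marker of mesangial cells. Of 13 measured genes of phosphorylation control, 4 lay higher on average and 9 lower, around a median of -0.07. None was higher or lower at an unadjusted p under 0.05 (0 of 13), where 7.96% and 5.65% of all genes were. The largest in size were Camk2g at -0.25, Arhgef1 at -0.23 and Arhgef12 at -0.22, and the isolates overlapped in each.

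Of 15 measured regulators, 5 lay higher on average and 10 lower. Their median log2 fold change was -0.13, and 0 were called. The limma fit put 2 higher and 3 lower at an unadjusted p under 0.05, against 7.96% and 5.65% of all genes. Srf, the factor that binds CArG boxes, stood at 9.20, 9.27 and 9.46 in PEC-enriched and 9.42, 9.36 and 9.53 in PEC-deprived replicates 1, 2 and 3, a log2 fold change of -0.13 (limma adjusted p = 0.783). Its partner Myocd had a log2 fold change of -0.11 (limma adjusted p = 0.820). The isolates overlapped in both. Heyl, a transcription factor downstream of Notch in vascular smooth muscle, had 7.51, 7.85 and 7.48 in PEC-enriched and 6.82, 6.78 and 6.92 in PEC-deprived replicates 1, 2 and 3. Its log2 fold change of 0.77 (limma SE 0.119, adjusted p = 0.152) was close in size to those of Myh11 and Tagln, and it stands on the same list drawn from these arrays. The PEC-deprived values of Heyl lay near the array medians and were not shown to be above background. Notch3, the Notch receptor of mural cells, had a log2 fold change of -0.48 with overlapping isolates (limma adjusted p = 0.666). Klf4, a zinc finger factor that represses contractile genes in cultured smooth muscle, had -0.46 (limma adjusted p = 0.182), and its PEC-enriched arrays lay below its PEC-deprived arrays.

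Channels, receptors and gap junction genes of arteriolar tone were divided. Of 26 measured, 11 lay higher on average and 15 lower. Their median log2 fold change was -0.03, and 0 were called. At an unadjusted p under 0.05, 6 of the 26 were higher and 3 lower, where 7.96% and 5.65% of all genes were. Kcnma1, the pore of the large calcium-activated potassium channel, had 5.96, 6.76 and 6.08 in PEC-enriched and 5.71, 5.66 and 5.56 in PEC-deprived replicates 1, 2 and 3, a log2 fold change of 0.62 (limma adjusted p = 0.322). Its arrays ranked as those of Myh11 and Tagln, with PEC-enriched replicate 2 highest and PEC-deprived replicate 3 lowest. How many genes share this order was not counted. Except on PEC-enriched replicate 2, the Kcnma1 values lay below the array medians and were not shown to be above background. Cacnb2, a subunit of voltage-gated calcium channels, had a log2 fold change of -0.56 (limma adjusted p = 0.280) and Gja5, the connexin of arteriolar endothelium and juxtaglomerular cells, one of -0.48 (limma adjusted p = 0.408).

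In the arterial wall matrix, 10 of 17 genes lay higher on average and 7 lower, around a median of 0.09, and 0 were called. The limma fit put 4 higher and 1 lower at an unadjusted p under 0.05, against 7.96% and 5.65% of all genes. Lox, which cross-links collagen and elastin, had 6.22, 7.07 and 6.37 in PEC-enriched and 5.56, 5.46 and 5.40 in PEC-deprived replicates 1, 2 and 3. Its log2 fold change was 1.08 (limma SE 0.205, adjusted p = 0.166), and it too stands on the list drawn from these arrays. Except on PEC-enriched replicate 2, the Lox values lay below the array medians and were not shown to be above background. Aebp1, a matrix protein of collagen assembly, had 0.69 (limma adjusted p = 0.322) and the small proteoglycan Ogn 0.69 (limma adjusted p = 0.443).

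Markers of other cells in the isolates also differed in mean between the groups. In a bulk isolate fewer cells of a type and less RNA per cell cannot be told apart. Parietal epithelial markers had a higher mean in 15 of 15 genes, with a median log2 fold change of 0.80. Their mean relative to all arrays ran from 0.237 to 0.715 in PEC-enriched and from -0.683 to -0.185 in PEC-deprived isolates. Proximal tubule markers had a higher mean in 13 of 13 genes and distal nephron markers in 11 of 12, with medians of 1.00 and 1.33. The share of all genes with a higher mean was 44.8%. The mean of the proximal tubule list relative to all arrays was 0.287, 0.82 and 0.277 on PEC-enriched replicates 1, 2 and 3. On PEC-deprived replicates 1, 2 and 3 it was 0.205, -1.076 and -0.512. Every PEC-enriched array exceeded every PEC-deprived one in 7 of these 13 genes, where 9.68% of all genes did so. Most of the parietal and distal nephron markers, and some of the proximal tubule ones, stand on the list drawn from these arrays. Their direction is therefore not independent evidence. On the PEC-enriched arrays parietal markers were highest in replicate 2 (0.715), then replicate 3 (0.410), then replicate 1 (0.237), the order of Myh11 and Tagln. On the PEC-deprived arrays the parietal markers were highest in replicate 1 (-0.185), then replicate 3 (-0.494), then replicate 2 (-0.683), which is not their order. The part of these cells in the values of Myh11 and Tagln was not tested.

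Markers of other contractile or vascular cells were mixed or had lower means. Mesangial markers lay higher on average in 7 of 16 genes and lower in 9, around a median of -0.14. Pericyte and mural markers had a lower mean in 12 of 13 genes, with a median of -0.11, and Rgs5 was the exception at 0.45 (limma adjusted p = 0.484). At an unadjusted p under 0.05 in limma, 1 of the 13 was lower and 0 were higher, where 5.65% and 7.96% of all genes were. The mean of this list relative to all arrays was 0.204, -0.156 and -0.256 on PEC-enriched replicates 1, 2 and 3, against 0.012, 0.072 and 0.125 on PEC-deprived replicates 1, 2 and 3. On the PEC-enriched arrays Smtn had the same order as this list, with replicate 1 highest and replicate 3 lowest, and on the PEC-deprived arrays replicate 3 was highest and replicate 1 lowest in both. Endothelial markers had a lower mean in 15 of 15 genes, with a median of -0.44, and Erg and Ehd3 of these stand on the list drawn from these arrays. The mean of the endothelial list was 0.04, -0.35 and -0.35 on PEC-enriched and 0.171, 0.23 and 0.26 on PEC-deprived replicates 1, 2 and 3. Replicate 1 was thus again the highest PEC-enriched array, and replicate 3 the highest PEC-deprived one, so this order is not particular to mural markers. Of the measured juxtaglomerular cell markers 4 lay higher on average and 6 lower, around a median of -0.06, and Aldh1a2, also on the list drawn from these arrays, was the highest at 0.92. Fibroblast and adventitial markers lay higher on average in 7 of 15 genes and lower in 8, with a median of -0.09, and leukocyte markers had a lower mean in 11 of 12, with a median of -0.29. The part of these cells in the values of Smtn and Actg2 was not tested.

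**Figure D4:**
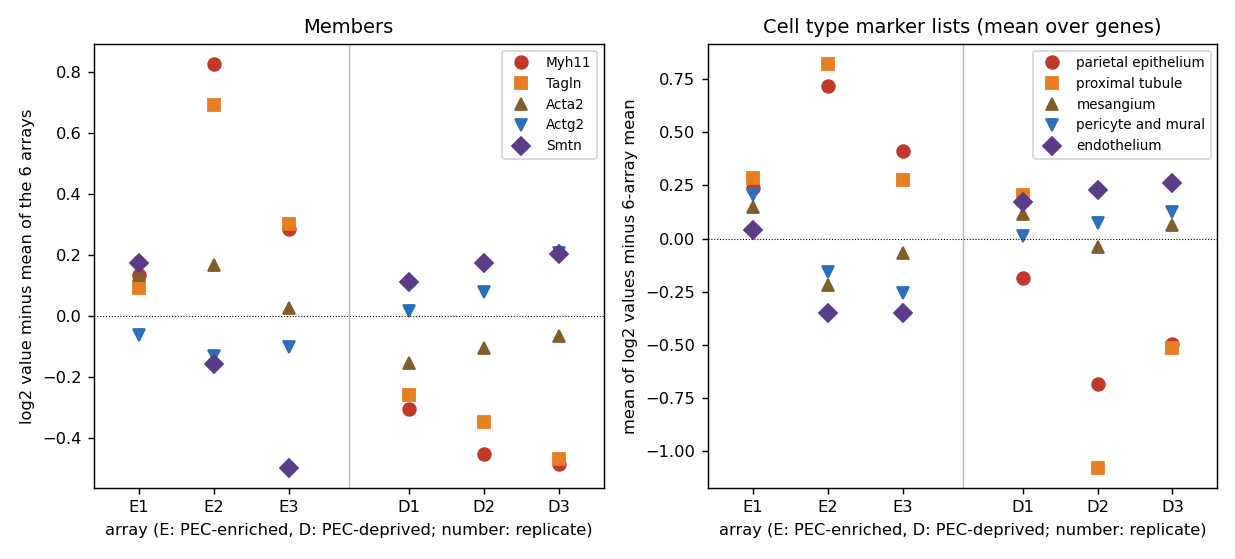
Values on the 6 arrays (x axis: E for PEC-enriched and D for PEC-deprived, with the replicate number), each point the log2 value minus the mean of the 6 arrays. The left panel shows 5 members and the right panel the mean of 5 marker lists. Myh11 and Tagln are highest on PEC-enriched replicate 2, as are parietal and proximal tubule markers, while Smtn is lowest on PEC-enriched replicate 3, as are pericyte and mural markers.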

How the data were processed

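RNA of 6 glomerular isolates was hybridized to Affymetrix Rat GeneChip 1.0ST arrays. The authors corrected background, quantile normalized the arrays and summarized probesets by RMA (also in the submitters' processing notes), and deposited 1 log2 value per probeset and array. The base was taken as that of RMA output, for which the range of the values from 2.13 to 13.87 is usual. The software version is not given in the sources used here. All 6 columns of values were used (0 left out), and no arrays were identical. The number of arrays limits the precision.

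Gene symbols came from the platform annotation, and probesets with several symbols (323) or none (13582) were not named. All 29215 probesets were fitted in R 4.3.3 with limma 3.58.1 (lmFit, then eBayes, without covariates; two-sided p), with Benjamini-Hochberg adjustment and the threshold of 0.01 of the methods, which name a Bayesian t-test. A regularised t-test of that kind, with a local variance prior over a window of 101 probesets, was an alternative. The others were a replicate block, an intensity trend, array weights, a level filter, probesets with 1 symbol only, median centring, cyclic loess, the mean of a gene's probesets, a threshold of 0.05 and each array left out. The fits were tested on simulated data. The members and lists were chosen with earlier results of these data known. Named were all members, up to 3 genes of each list by size of log2 fold change, isoform counterparts, Srf, Myocd and the 8 genes nearest in profile, and a few others were chosen after their values were seen. Figures were drawn with matplotlib 3.10.9.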

Additional observations from a re-analysis of the deposited data

How the results depend on the processing

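In every alternative fitted with limma 0 of the 9 contractile genes were called, also at a threshold of 0.05. The regularised t-test at its prior weight of 10 called 334 probesets and 2 members, Myh11 (adjusted p = 0.00393) and Tagln (adjusted p = 0.00608). At prior weights of 6 and 3, added after the data were seen, it called 32 and 0 probesets and 0 members, with adjusted p = 0.0377 and 0.383 for Myh11. Leaving out single arrays gave 0 to 1 probesets, which was Slc12a1 without PEC-deprived replicate 1 (adjusted p = 0.00751 in limma). Deviations of same-numbered arrays correlated at -0.0287, 0.0519 and 0.1004, and those of differently numbered arrays between -0.1354 and 0.0827. These correlations cannot tell whether same-numbered isolates came from the same rats, because the deviations also hold differences between preparations. With the replicate block 0 probesets were called. Members with an unadjusted p under 0.05 numbered 3 in the reported fit and 2 or 3 in the alternatives. Acta2 passed in the reported limma fit (0.0387) but not with the replicate block (0.0598), median centring (0.0663), the regularised t-test at prior weights of 10, 6 and 3 (0.0601, 0.0632 and 0.0691) or any array left out but PEC-enriched replicate 3 (0.0594 to 0.109). Smtn, which is lower, was below 0.05 without PEC-enriched replicate 1 (0.00647) and in the regularised t-test at prior weights of 10 and 6 (0.0252 and 0.0447). Over the arrays left out, the median log2 fold change of the members ran from -0.0635 to 0.0993, Cnn1 from -0.0558 to 0.117, Myl9 from -0.0730 to 0.0993 and Lmod1 from -0.0635 to 0.0655. Lmod1 was also 0.00743 with cyclic loess. The cause was not tested. Myh11, Tagln, Acta2, Actg2, Smtn and Mylk kept their sign under every alternative. The level filter left out 1 member, Cnn1.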
